A study of Arabidopsis thaliana with 8 samples.

Results

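Leaf RNA of unmodified Arabidopsis thaliana plants of the Col-0 ecotype was described here from 4 of the 8 arrays in a study of plants overexpressing Rap2.9, an AP2/ERF transcription factor. The 4 arrays were chosen by their genotype label, wild-type, and the tissue label of all 8 was leaf. The other 4 arrays held leaf RNA of plants carrying 35S::Rap2.9-GFP, in which a constitutive viral promoter drives a fusion of the factor with green fluorescent protein. They entered only where their spread between arrays was set beside that of the wild type, and in an alternative slide fit over all 8 arrays. Per the labels, all plants were untreated and 54 days old. Seeds had 3 days of cold at 7 °C, the plants then had 20 days of 8 h light at 22 °C, and 34 further days followed with 12 h of light at 22 °C and 12 h of dark at 18 °C, under 60 µmol of light and 60% humidity. The hour of harvest, the leaf position and the number of plants behind an array are not given in the sources used here. The series text calls the arrays of a genotype biological replicates, and what they share beyond that is not given there.

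A mature leaf is mostly photosynthetic mesophyll under an epidermis with guard cells and trichomes, and veins of xylem and phloem run through it. Nuclear genes encode the antenna proteins that gather light, most subunits of photosystem I, the extrinsic subunits of photosystem II, the small subunit of Rubisco and the other enzymes of carbon fixation, and these transcripts are known to be among the most abundant in green leaves. Other leaf transcripts follow the time of day, wounding, pathogens, light stress or leaf age, and can differ between plants grown together.

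Each array held 43603 different non-control probes, of which 34348 were matched to 25410 loci, all protein-coding and on the 5 nuclear chromosomes. The level of a probe is the log2 of its background-subtracted intensity minus the log2 of the array's 75th percentile, so that a level of 0 is that percentile and a difference of 1 is a factor of 2. A locus has the level of its brightest probe. The 75th percentile lay between 1724 and 2154 intensity units on the wild-type arrays, 0 spots were saturated, and 72.7% to 79.6% of probes were well above background by the scanner software's flag. Over 43442 probes, which share the arrays and do not count as replicates, pairs of wild-type arrays had a Pearson's r of 0.986 to 0.990. The arrays lay on 2 slides, with replicates 1 and 3 on slide 1 and replicates 2 and 4 on slide 2. In limma's moderated fit of slide 2 against slide 1, 0 of 19078 loci (0%) passed a Benjamini-Hochberg adjusted p of 0.05, and the smallest adjusted p was 0.53. At an unadjusted p under 0.05 the same fit gave 707 loci, fewer than the 954 that make up 5% of those tested. Other processing of the 4 arrays gave 696 to 725 loci, and 1152 of 25319 without the detection filter. A fit over all 8 arrays with a term for genotype gave 551 of 19033. In these fits too, 0 loci passed the adjusted threshold, and their smallest Benjamini-Hochberg adjusted p was 0.083, with normexp background correction. Fits that leave out a replicate have a slide with a single array and are not part of these counts. With 2 arrays per slide, the fit can miss a slide difference.

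Most of the measured protein-coding loci had a transcript signal in the leaf. In all, 19128 loci (75.3%) had a probe well above background on all 4 arrays and are called detected here. A further 2517 loci (9.91%) had one on 1 to 3 arrays, and 3765 loci (14.8%) had none on any array and are called undetected. With the software's positive-and-significant flag in its place, 1139 loci had no flagged probe on any array. Single arrays showed 76.8% of loci on replicate 2, 78.6% on replicate 1, 81.7% on replicate 3 and 82.6% on replicate 4. Of the 1040 loci seen on a single array, 505 were seen only on replicate 4, 349 only on replicate 3, 123 only on replicate 1 and 63 only on replicate 2. The median length of the annotated gene was 2361 bases for detected loci and 1323 bases for undetected ones. Detected loci had a median level of -0.52, and their 10th and 90th percentiles were -4.56 and 2.35. Different probes bind with different strength, so levels of different loci are not molecule counts: among 4470 loci with exactly 2 probes well above background on all arrays, the probes of the same locus differed by a median of 1.60 in level, and 41.6% of them differed by more than 2. Differences of that size between loci are therefore described and not tested.

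The brightest signals came from the photosynthetic apparatus. Of the 20 brightest loci, 12 belonged to the lists of antenna, photosystem, carbon fixation and photorespiration genes, as did 42 of the 100 brightest. All 79 measured members of these 4 lists were detected, beside 75.3% of all loci, and together they held 13.2% of the summed linear signal over all loci. CAB1, a gene for an antenna protein of photosystem II, was brightest, with levels of 7.89, 7.92, 8.00 and 8.07 on replicates 1 to 4 (mean 7.97 ± 0.08, SD, n = 4). PSBR, a photosystem II subunit, followed at 7.89 ± 0.08, PSBO1, which stabilises the oxygen-evolving cluster, at 7.84 ± 0.14, and LHCA1, an antenna protein of photosystem I, at 7.83 ± 0.08 (SD, n = 4 each). The 20th locus, the peroxidase gene PRXR1, had a level of 7.44 and the 21st, DRT112, one of the plastocyanin genes, a level of 7.42. None of the 19 pairs of neighbours in the order of the 20 brightest differed by more than the larger of their SDs. Of the 20, 16 were among the 20 brightest on every array and 20 among the 30 brightest on every array. The 100 brightest loci held 23.4% of the summed signal, 22.7% to 24.2% on single arrays, and 90 of them were among the 100 brightest on every array. The median annotated length of these 100 genes was 1470 bases.

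**Figure D1:**
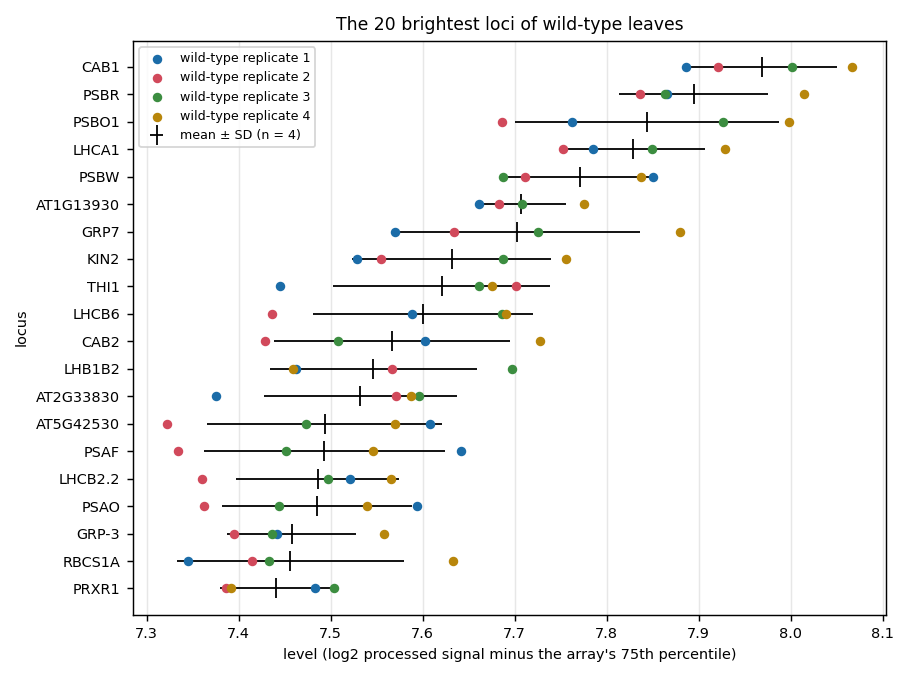
Level of the 20 brightest loci on each wild-type array (points), with the mean and SD over 4 arrays (bars). The horizontal axis is the log2 processed signal minus the array's 75th percentile; all 20 loci lie between 7.32 and 8.07, and neighbours in the order overlap.

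The antenna list was the brightest of 28 gene lists, with a median level of 7.28 over its 17 members. Of these, 15 were among the 100 brightest loci, among them LHCB6 (7.60 ± 0.12), CAB2 (7.57 ± 0.13) and LHB1B2 (7.55 ± 0.11, SD, n = 4 each). The lowest were LHCB2.3 and LHCB2.1, which encode major antenna proteins of photosystem II. LHCB2.3 read 3.81, 3.47, 3.05 and 3.53 and LHCB2.1 read 1.78, 1.203, 0.92 and 1.50 on replicates 1 to 4, against 7.49 ± 0.09 for LHCB2.2. Genes of one antenna or Rubisco family are near-identical in sequence, so a probe may pick up its relatives, and the split between them is uncertain.

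The 30 genes for photosystem subunits and electron carriers had a median level of 6.32, and 18 of them were among the 100 brightest loci. PSBW, a small photosystem II subunit, read 7.77 ± 0.08, and PSAF, which docks plastocyanin at photosystem I, read 7.49 ± 0.13 (SD, n = 4). The lowest were PGR5, needed for cyclic electron flow, at 3.70 ± 0.16 and PSAH2, a photosystem I subunit, at 3.68 ± 0.17 (SD, n = 4). Carbon fixation genes had a median of 5.28 over 21 members. The Rubisco small subunit genes led, with RBCS1A at 7.46 ± 0.12, RBCS3B at 7.25 ± 0.16, RBCS1B at 7.09 ± 0.11 and RBCS2B at 7.04 ± 0.15, and the triose phosphate isomerase gene TIM was lowest at 2.76 ± 0.14 (SD, n = 4). Photorespiration, which recycles the product of Rubisco's oxygenase reaction, had a median of 4.77 over 11 genes, from 5.78 ± 0.13 for SHM1, a mitochondrial serine hydroxymethyltransferase, to 2.08 ± 0.17 for the catalase gene CAT2 (SD, n = 4). CAT3, another catalase gene named here after its value was seen, was among the 100 brightest at 7.34 ± 0.09.

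Transcripts of other processes stood beside them. GRP7, a clock-controlled RNA-binding protein, read 7.70 ± 0.13, and THI1, which makes the thiazole part of thiamine, read 7.62 ± 0.12 (SD, n = 4). The cold regulon, genes switched on by the CBF factors in the cold, had a median of 6.04 over 10 genes, all detected and 6 of them among the 100 brightest. KIN2 read 7.53, 7.55, 7.69 and 7.76 on replicates 1 to 4, KIN1 had a mean of 7.11 ± 0.05, and COR15B and COR47 had means of 6.63 ± 0.15 and 6.61 ± 0.14. The genes for the CBF factors were lower, with CBF3 (named DREB1A in the gene table) at 1.96 ± 0.11, CBF1 at 0.61 ± 0.14 and CBF2 at -0.14 ± 0.19. The KIN1 level is that of the brighter of its 2 probes, and the other probe had a mean of -6.97. Whether the brighter probe also picks up a relative was not tested. LOX2, the chloroplast lipoxygenase of jasmonate synthesis, read 7.04 ± 0.17 and was the 41st brightest locus. The 10 reference genes lay at different levels: UBQ10 read 7.23 ± 0.09, GAPC2 5.60 ± 0.09, GAPC1 4.86 ± 0.12 and UBQ5 4.69 ± 0.01. ACT7, an actin gene, read 4.22, 4.24, 4.22 and 4.11 on replicates 1 to 4. The lower members were YLS8 at 3.73 ± 0.06, ACT8 at 2.66 ± 0.19, TUB4 at 2.51 ± 0.08, PEX4 (UBC21) at 1.42 ± 0.09 and PP2AA3 at 0.53 ± 0.03 (SD, n = 4 each).

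**Figure D2:**
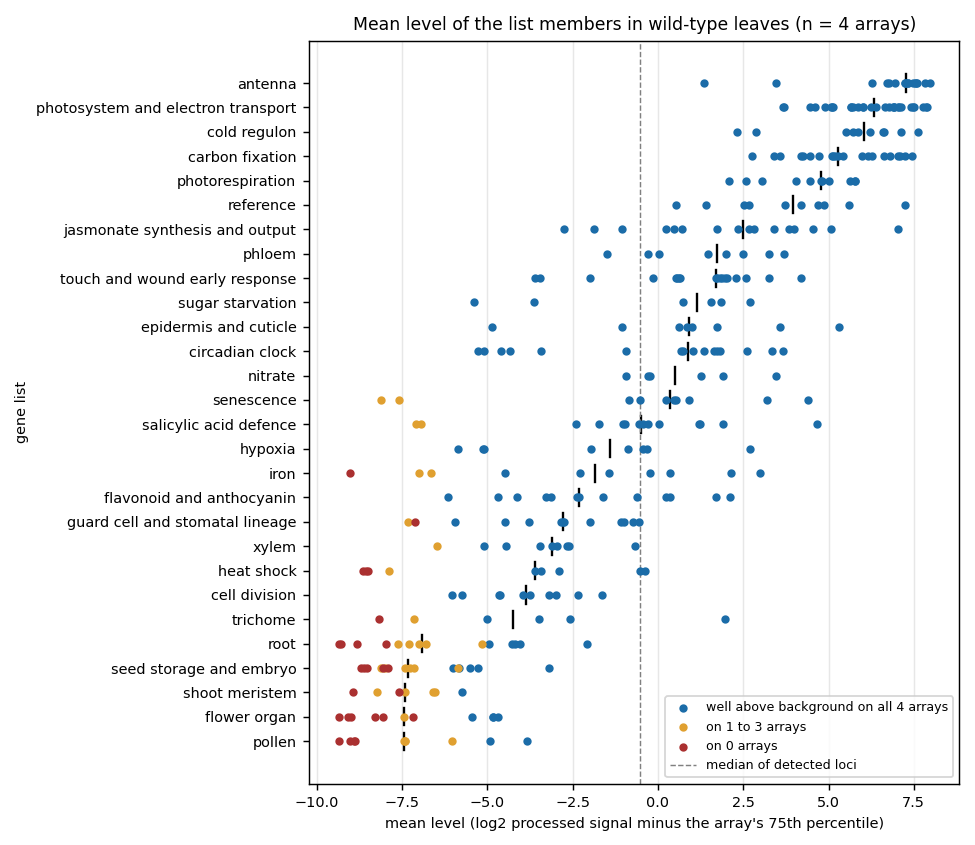
Mean level over 4 wild-type arrays of every measured member of the 28 lists, coloured by the number of arrays on which the locus was well above background; black ticks are list medians and the dashed line is the median of detected loci, -0.52. The antenna median is 7.28 and the pollen and flower organ medians are -7.44.

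Clock genes were all detected, 16 of 16 beside 75.3% of all loci, and spread over a wide range of levels. The brightest were FKF1, a light-sensing F-box protein, at 3.57, 3.67, 3.65 and 3.81 on replicates 1 to 4, ELF4 at 3.34 ± 0.09 and LUX (PCL1) at 2.59 ± 0.08, the last 2 being members of the evening complex. PRR5 (1.81 ± 0.13), PRR7 (1.72 ± 0.10) and GI (1.64 ± 0.11) came next. The 5 lowest were the morning-phased genes CCA1 at -3.42 ± 0.09, PRR9 at -4.35 ± 0.14, LHY at -4.62 ± 0.27, RVE1 at -5.10 ± 0.09 and RVE8 at -5.27 ± 0.14 (SD, n = 4 each). Other genes that peak in the morning were higher, with LNK1 at 1.03 ± 0.06 and LNK2 at -0.94 ± 0.10. On each of the 4 arrays FKF1, ELF4 and LUX lay above the 5 lowest genes. The genes were picked as highest and lowest by these same arrays, so this is a description.

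Loci near the middle of the range included genes of many roles. The 6 named loci nearest the median of detected loci were the wall-associated kinase-like gene RFO1 at -0.52 ± 0.06, hemb2 at -0.52 ± 0.12, RIP5 at -0.52 ± 0.13, the glutamate receptor gene GLR2.7 at -0.52 ± 0.13, the metal transporter gene NRAMP6 at -0.52 ± 0.14 and GLX2-4 at -0.52 ± 0.04 (SD, n = 4 each). Phloem, surface and guard cell genes lay on both sides of this middle. All 8 phloem genes were detected, beside 75.3% of all loci, from PP2-A1, a phloem lectin, at 3.70 ± 0.07 and the sucrose transporter gene SUC2 at 2.49 ± 0.04 down to FTIP1 at -1.51 ± 0.11. All 8 epidermis and cuticle genes were detected, from 5.31 ± 0.23 for the lipid transfer protein gene LTP1 (LP1 in the gene table) to -4.88 ± 0.50 for PDF1. Of 13 guard cell and stomatal lineage genes, 11 were detected. The guard cell potassium channel gene KAT1 read -0.57 ± 0.23 and the anion channel gene SLAC1 (OZS1) read -0.74 ± 0.14, while MUTE, which acts briefly in the dividing lineage, was undetected and EPF2 was seen on 1 array. SPCH, which starts that lineage, was detected at -5.94 ± 0.50 (SD, n = 4 each).

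Lists of genes that mark other organs had medians at the bottom of the range, from -7.44 for pollen and flower organ genes to -6.91 for root genes. Several members were above background, and some lay well above these medians. Of 11 flower organ genes, 6 were undetected, beside 14.8% of all loci: SHP1, AP1, AP3, SEP2, SHP2 and LFY, whose mean levels ran from -7.17 to -9.36. SEP1 was seen on 2 arrays, and PI (-4.68 ± 0.62), AG (-4.84 ± 0.22), SEP3 (-4.85 ± 0.85) and STK (-5.46 ± 0.17) were detected (SD, n = 4 each). Of 10 pollen genes, 4 were undetected and 2 detected, TIP5;1 at -3.83 ± 0.27 and AGP6 at -4.93 ± 0.35. Of 16 seed genes, 5 were undetected, among them the storage protein genes CRU2, CRU3 and SESA1, and 5 detected, the highest being FUS3, a regulator of embryo maturation, at -3.20 ± 0.22. Of 14 root genes, 4 were undetected, the root hair genes RHD6, RSL4 and EXPA7 and the root tip gene PLT1, and 5 detected, led by the phosphate exporter gene PHO1 at -2.08 ± 0.13. Of 7 shoot meristem genes, CLV3 and WUS were undetected and CUC3 alone was detected, at -5.73 ± 0.23. The summed linear signal of a list, in units of the 75th percentile, was 0.12 to 0.24 on single arrays for flower organ genes, 0.10 to 0.18 for pollen, 0.22 to 0.34 for seed, 0.45 to 0.60 for root and 0.05 to 0.08 for meristem, against 2283 to 2580 for the antenna.

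The share of undetected loci, 14.8% over all loci with the flag used, differed between gene families, and the families were not counted with the other flag. Among 56 groups of at least 20 loci that share the letters of their symbol, the share undetected was highest for the cysteine-rich peptide genes LCR, with 40 of 77 (51.9%), and SCRL, with 14 of 27 (51.9%). The peptide genes RALFL had 12 of 28 (42.9%) and the cation exchanger genes CHX had 9 of 22 (40.9%). Loci whose symbol starts with GH had 11 of 25 (44.0%). Genes named MYB had 34 of 120 undetected (28.3%). Undetected loci were also neighbours more often than the overall share: 23.2% of the loci that followed an undetected locus along a chromosome were undetected themselves, against 14.8% of all loci with a measured predecessor. There were 10 runs of at least 5 undetected neighbours, 56 loci in all. The longest held 8 loci on chromosome 3, from AT3G32260 to AT3G32920, and another held the 6 genes LCR21, LCR22, LCR23, LCR24, LCR26 and LCR27 on chromosome 4. Whether a signal below background means no transcript or a weak probe was not tested. The share undetected ran from 14.4% on chromosome 5 to 15.6% on chromosome 3.

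Levels of most loci differed little between the 4 arrays. Over the 19078 loci whose brightest probe was well above background with a value on all 4 arrays, the median SD was 0.11, a factor of 1.08, and the middle 50% of loci lay between 0.071 and 0.185. The SD exceeded 0.5 in 840 loci (4.40%) and 1 in 83 loci (0.435%). Dim loci were more spread: the median SD was 0.302 in the decile of lowest level and lay between 0.086 and 0.098 in each of the 6 deciles of highest level. For comparison, 17 detected probes are printed 5 times on each array. Their median SD was 0.096 between single copies on an array and 0.109 between the arrays' means of the copies. These are unlike measures, since a mean of copies varies less than a single copy. In 17 of the 17 probes, the SD between arrays exceeded the SD between copies divided by the square root of their number. The least variable loci with a level above the median were AZG1, a purine transporter gene, with an SD of 0.0041, SVR1 with 0.0048, ARFB1B with 0.0050, the polyubiquitin gene UBQ3 with 0.0056 and AT5G23590 with 0.0060. The others of the 10 were IDN2, AT5G52370, SGA2, AT4G36080 and YLMG1-2, with SDs up to 0.0074. AZG1 read 0.68, 0.68, 0.68 and 0.69 on replicates 1 to 4. The 10 were chosen as the smallest of many SDs over 4 arrays. Over the transgenic arrays their SDs were 0.037 to 0.120, against a median of 0.115 for 18593 loci detected in both genotypes.

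**Figure D3:**
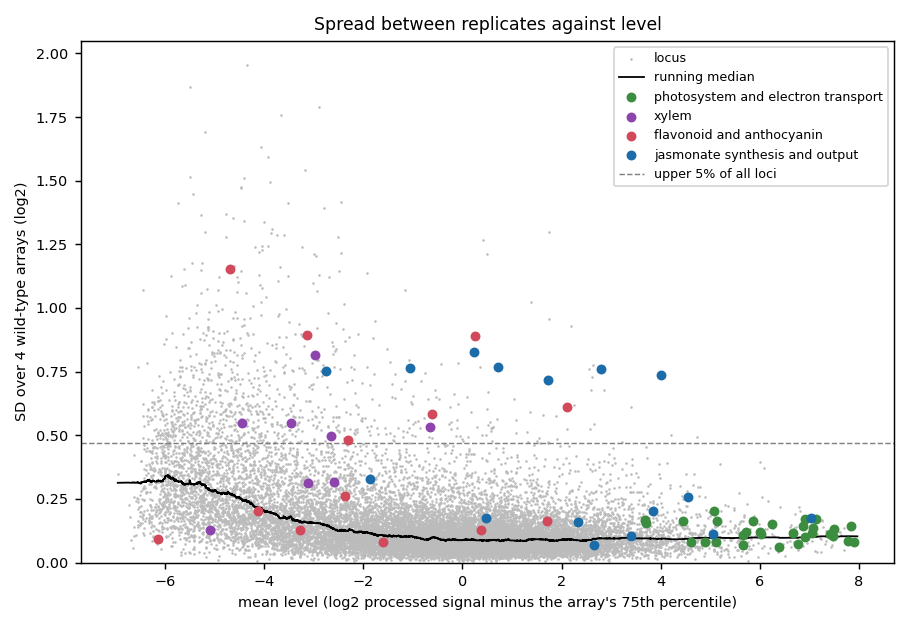
SD over the 4 wild-type arrays against the mean level of 19078 loci (grey), with the running median (black line), the lower bound of the upper 5% of SDs (dashed line, 0.469) and the members of 4 lists (coloured points). The photosystem genes sit at 0.201 or less, while 7 jasmonate, 6 flavonoid and 5 xylem genes lie above the dashed line.

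The most variable loci were mostly dim. The 100 loci with the largest SD had a median level of -4.21, 93 of them lay under -2 and 5 above 0. With normexp background correction, which adds a constant of 50 intensity units before the log, the 100 largest SDs belonged to loci with a median level of -2.84, 34 of them above -2. The 20 largest SDs ended at 1.37, with 1.35 for the 21st locus, and the 100 largest at 0.957, with 0.956 for the 101st. The largest, 1.95, belonged to AT2G44240, which read -4.12, -5.98, -1.68 and -5.62 on replicates 1 to 4 and was thus high on replicate 3. AT5G48690 followed, with -2.72 on replicate 1 and between -6.16 and -6.59 on the others, and AT4G11290, with -1.32, -1.73, -3.26 and -5.27. LSH4, a gene of organ boundaries, read -2.56, -1.91, -4.38 and -5.77. FUT2, a fucosyltransferase gene, read -5.50 on replicate 1 and -2.44, -2.41 and -2.38 on the others. LUP1, which makes the triterpene lupeol, read -1.29, -1.16, -3.50 and -3.83, and JKD, a zinc finger gene, read -4.85, -4.36, -6.30 and -7.46. ARD3, of the methionine salvage pathway, read -2.70, -4.53, -1.12 and -2.81, and AAE12, an acyl-activating enzyme gene, read -3.53, -3.72, -5.51 and -6.33. The remaining 11 of the 20, AT3G05980, AT4G16610, AT5G58390, TPR12, MLP165, AT5G60000, AT2G38240, AT1G31710, AT3G12710, AT5G50335 and AT4G22470, had SDs from 1.37 to 1.69. The 20 SDs were 0.498 to 1.34 with normexp, where JKD had the lowest. With that correction 60 of the 100 most variable loci were among the 100 again, and 98 of the 100 lay in the upper 5% of SDs, beside 5.00% of all loci. The 100 were chosen by their SD over the same arrays, so these counts show only how the ranking depends on the correction. Leaving out replicate 2 left 58 of the 100.

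Variable loci fell into groups with the same replicates high or low. Each of the 200 most variable loci was assigned by the largest gap between its 4 sorted levels, and the share of each group is given beside that over all 19078 loci. In 47 loci (23.5%, against 9.67% of all) replicate 2 stood below the other replicates, and in 34 loci (17.0%, against 5.47%) replicates 1 and 2 stood above replicates 3 and 4. Replicate 3 stood above the rest in 24 loci (12.0%, against 14.0% of all). Replicate 1 stood below the rest in 19 (9.5%, against 11.7%) and replicate 2 above the rest in 18 (9.0%, against 6.53%). The groups with replicate 3 above and with replicate 1 below were thus no more common than over all loci. The 200 were chosen by their SD over these arrays, so the shares are a description. None of these 5 groups follows the slides, which pair replicate 1 with 3 and 2 with 4, and 11 of the 200 loci (5.50%, against 4.50% of all) had replicates 1 and 3 above 2 and 4.

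The group that was higher on replicates 1 and 2 held LSH4, LUP1, JKD, AAE12, LSH3 and LSH10, of which the 3 LSH genes are relatives, with the arabinogalactan protein gene AGP31 and the tubulin gene TUB1, which were named after their values were seen. LSH10 read 1.52, 1.49, -0.21 and -0.86, AGP31 read -0.62, 0.08, -1.92 and -2.18, and TUB1 read -2.18, -1.63, -3.37 and -3.28 on replicates 1 to 4. The group with replicate 2 below the others had a median level of -4.10 among the 42 that were also detected on all transgenic arrays. It held ARD3, the root gene PYK10 (-2.97, -5.78, -3.36 and -4.10), the petal gene RBE (-4.06, -6.25, -3.59 and -4.61) and many loci without a symbol. The number of loci well above background was also lowest on replicate 2, and its part in this group was not tested. The group with replicate 1 below the others held the anthocyanin genes DFR, LDOX, MYB90 and AT5MAT and, among genes named after their values were seen, the suberin genes GPAT5 and ABCG6. GPAT5 read -5.96, -5.16, -3.99 and -4.63, and ABCG6 read -4.01, -3.03, -2.17 and -2.54.

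The spread of the same loci was also taken among the transgenic arrays. Of the 100 most variable, 90 were well above background on all 4 transgenic arrays, and 41 of these (45.6%) lay in the upper 5% of SDs there, beside 5.00% of 18593 loci, while 49 did not. Their median SD among the transgenic arrays was 0.508, against 0.115 for all. Dim loci as a whole were there more often too: of loci with levels from -4.56 to -3.14, which spans much of the same range, 11.1% were in the upper 5% among the transgenic arrays, and of dimmer ones 38.2%. The highest and lowest transgenic replicates were also counted within groups, without a share over all loci to set beside them. Of the 33 loci higher on wild-type replicates 1 and 2 that were detected on all 8 arrays, 33 had their lowest level on transgenic replicate 4 and 28 their highest on transgenic replicate 2. Median deviations from the locus mean were 0.22, 0.61, -0.09 and -0.75 on transgenic replicates 1 to 4 and 0.71, 1.13, -0.69 and -1.06 on wild-type replicates 1 to 4, by which the loci were chosen. Of 42 loci lower on wild-type replicate 2, 28 were highest on transgenic replicate 2 and 25 lowest on transgenic replicate 3. Their median deviations were 0.17, 0.37, -0.30 and -0.20 on transgenic and 0.32, -1.35, 0.94 and 0.08 on wild-type replicates 1 to 4. Transgenic replicate 4 was also lowest in 13 of 17 loci higher on wild-type replicate 2, but in 2 of 18 lower on wild-type replicate 1. Such a lean is thus not particular to 1 group. The share of all loci highest or lowest on each transgenic array was not counted. The labels do not say that a replicate number stands for anything shared by the genotypes, and whether it does was not tested.

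**Figure D4:**
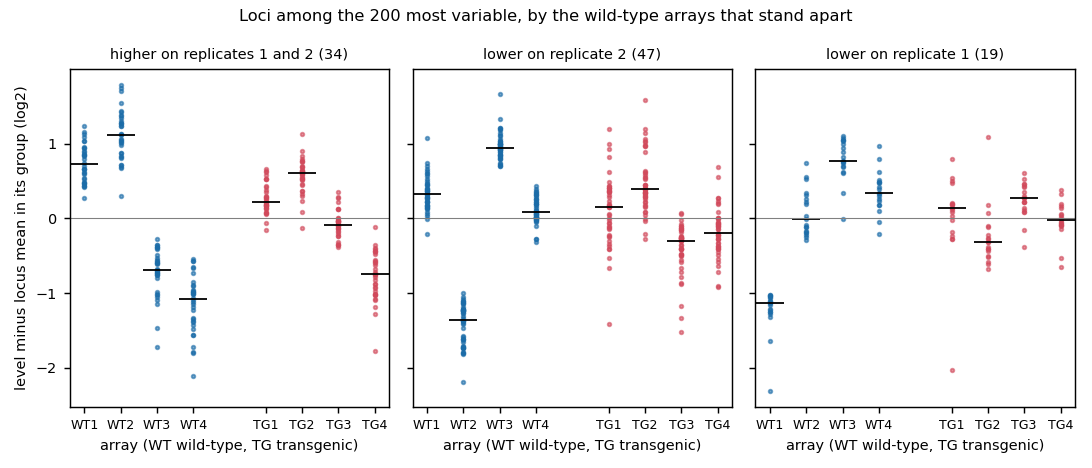
Deviation of each locus from its mean within its genotype on the 8 arrays, for the loci among the 200 most variable that were higher on wild-type replicates 1 and 2 (34), lower on replicate 2 (47) or lower on replicate 1 (19); ticks are medians. The loci were chosen by the blue wild-type values; in the left panel the red values are lowest on transgenic replicate 4, with a median of -0.75 over the 33 loci detected on all arrays. The share of all loci lowest on that replicate was not counted.

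Above the 75th percentile, 46 of 7943 loci (0.579%) had an SD over 0.5. AT5G22580 read 2.60, 3.12, 0.66 and 0.63 on replicates 1 to 4, AT5G05960 read 1.24, 1.68, -0.28 and -1.02, and AT3G45160 read 2.41, 2.62, 1.39 and 0.56, all higher on replicates 1 and 2. AT4G16260 read 2.16, 0.37, 2.36 and 0.64, higher on slide 1. Its difference of slide 2 minus slide 1 was -1.75, with an adjusted p of 0.60 in the limma slide fit. With 2 arrays per slide, that fit can miss a difference of this size. These 4 loci and the others with the largest SD above that level were named after their values were seen. AT3G28220 and the lipid transfer protein gene LTP3 were highest on replicate 4, with 3.43 and 3.66 there and at most 2.36 and 2.40 on the others. The 20 loci with the largest SD above the 75th percentile had SDs of 0.618 to 1.24 with normexp. They were chosen by their SD over the same arrays, so this is a description.

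**Figure D5:**
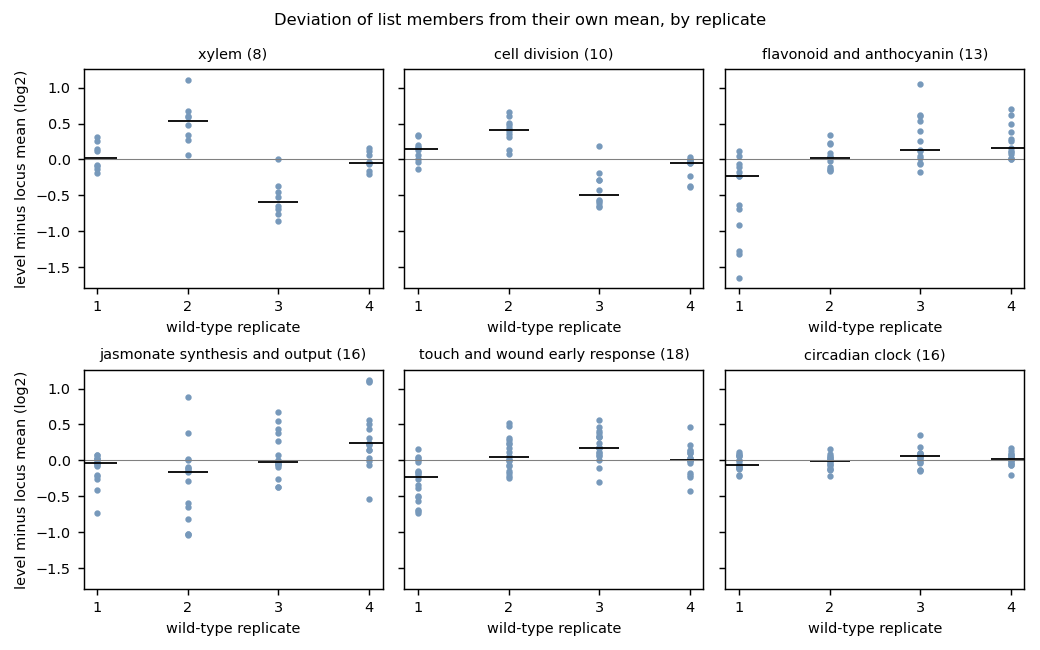
Level minus the locus's own mean on each wild-type replicate for the members of 6 lists (points; number of members in brackets), with list medians as ticks. Xylem and cell division genes are lowest on replicate 3, where 7 of 8 and 9 of 10 members have their lowest value, and the clock list has a median SD of 0.099.

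Several lists of related genes had most of their highest or lowest values on the same replicate. Over all 19078 loci, 28.3%, 20.6%, 33.3% and 17.8% were highest and 27.5%, 27.3%, 24.2% and 20.9% lowest on replicates 1 to 4. The share of loci in the upper 5% of SDs fell with level, which the 5.00% over all loci leaves out. It was 23.9% in the decile of lowest level, 13.6% in the next and at most 1.68% in each decile from a level of -1.99 up. Xylem genes had the largest median SD of the lists with at least 8 members, 0.51 over 8 genes against 0.11 over all loci, and 5 of the 8 were in the upper 5%, beside 5.00% of all loci. XCP1, a protease of dying xylem cells, read -3.06, -1.87, -3.83 and -3.13 on replicates 1 to 4, XCP2 read -0.51, -0.06, -1.35 and -0.72, and the secondary wall cellulose synthase genes IRX3 and IRX1 read -4.13, -3.97, -5.20 and -4.49 and -3.21, -2.86, -4.12 and -3.67. In 7 of 8 xylem genes replicate 2 was highest, and in 7 of 8 replicate 3 was lowest. The exception to the lowest value was VND7, a switch for vessel formation, with an SD of 0.13. The summed signal of the list was 1.45, 2.08, 0.91 and 1.35 on replicates 1 to 4. In whole leaves, fewer cells of a type and less RNA per cell cannot be told apart.

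Cell division genes followed the same order. Of 10 genes, 8 were highest on replicate 2 and 9 lowest on replicate 3, with a median SD of 0.40. The mitotic kinase gene CDKB1;1 read -4.34, -4.01, -5.28 and -5.04, CDKB2;1 read -3.74, -3.34, -4.53 and -4.18, and KNOLLE (SYP111), which builds the division plate, read -2.19, -1.84, -3.01 and -2.34. MCM2, of DNA replication, was brightest at -1.63 ± 0.14 (SD, n = 4). Of the 10, 3 were in the upper 5%, beside 5.00% of all loci. The list is dim, and the share was 23.9% of loci in the decile of lowest level and 13.6% in the next. The list's median SD was 1.83 times that of loci of like level. With normexp the medians of the xylem and cell division lists were 0.308 and 0.202, against 0.111 for all loci.

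Flavonoid and anthocyanin genes were lowest on replicate 1 in 11 of 13 cases, and 6 of 13 were in the upper 5%, beside 5.00% of all loci. DFR, an early enzyme of the anthocyanin branch, read -1.07, 0.47, 0.85 and 0.73 on replicates 1 to 4. LDOX, which acts after it, read -4.40, -3.09, -2.51 and -2.51, the anthocyanin regulator gene MYB90 (PAP2) read -6.33, -4.34, -3.63 and -4.42, and GSTF12 (TT19), which brings anthocyanin to the vacuole, read 1.204, 2.33, 2.51 and 2.40. Chalcone synthase, named TT4 in the gene table, read -1.31, -0.76, -0.48 and 0.09. The flavonol regulator gene MYB12 (-6.14 ± 0.09), the flavonol synthase gene FLS1 (-3.27 ± 0.13) and the chalcone isomerase gene TT5 (-1.61 ± 0.08) differed less between replicates (SD, n = 4 each). PAP1 (AT1G56650), a relative of MYB90, was 1.46 on replicate 1 and 1.71 to 1.81 on the others.

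Jasmonate genes had SDs from 0.07 for MYC2 to 0.83 for VSP1. Of 16, 7 were in the upper 5%, beside 5.00% of all loci, 7 were so with normexp, and 12 were lowest on replicate 2. The defensin gene PDF1.2 read 3.97, 2.97, 4.55 and 4.50 on replicates 1 to 4, and its near relatives PDF1.3 and PDF1.2b, which may share its probes' signal, read 2.72, 1.76, 3.48 and 3.24 and 1.75, 0.71, 2.16 and 2.29. VSP1, a vegetative storage protein gene, read 0.30, -0.59, -0.14 and 1.35, and VSP2 and the thionin gene THI2.1 were likewise highest on replicate 4, at 0.03 and -1.65. TAT3, a tyrosine aminotransferase gene, was in contrast highest on replicate 2, with -0.03, 1.60, 1.09 and 0.17. The synthesis genes AOS (5.06 ± 0.11) and AOC1 (3.41 ± 0.10) and the regulator MYC2 (2.66 ± 0.07) had the smallest SDs, and LOX4 (-1.87 ± 0.33), CORI3 (4.54 ± 0.26) and OPR3 (3.84 ± 0.20) lay between (SD, n = 4 each).

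Touch and wound genes, which respond within minutes to handling, were all detected, and 11 of 18 were lowest on replicate 1, beside 27.5% of all loci, and 10 of 18 highest on replicate 3, beside 33.3%. TCH3, a calmodulin-like gene, read 3.47, 4.32, 4.60 and 4.41, WRKY33 read 1.03, 1.97, 2.06 and 1.85 and WRKY40 read -0.13, 1.098, 0.74 and 0.57 on replicates 1 to 4. These 3 were in the upper 5%, beside 5.00% of all loci, and 7 of 18 were with normexp. Salicylic acid genes had a median SD of 0.28 over 12, with 2 in the upper 5%, beside 5.00% of all loci, and 4 with normexp: PR1, the standard marker of that pathway, read -2.62, -2.86, -1.66 and -2.45, and NIMIN1, which binds the receptor NPR1, read -1.39, -1.68, -0.60 and -0.38. FMO1 and ALD1, which make the immune signal N-hydroxypipecolic acid and its precursor, were seen on 2 arrays each and were highest on replicate 3, at -4.93 and -5.40.

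Of 10 senescence genes, 8 were detected, beside 75.3% of all loci, and their levels ran from 4.39 to -0.85. The chlorophyll breakdown genes PPH and PAO (ACD1) read 4.39 ± 0.21 and 3.20 ± 0.15, and NYE1 read 0.47 ± 0.06 (SD, n = 4 each). SAG12, a protease gene of late senescence, was well above background only on replicate 1, with -4.32 there and between -8.18 and -8.96 elsewhere. SAG29 was so only on replicate 4, with -6.19 there and at most -8.20 elsewhere. STM, a meristem gene, and CRA1, a seed storage gene, were so only on replicate 3, with -5.64 and -5.51 there and at most -8.73 and -8.91 on the others.

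Clock genes had a median SD of 0.099 over 16 genes, the cold regulon 0.115 over 10, phloem genes 0.101 over 8 and reference genes 0.083 over 10. None of these 4 lists had a member in the upper 5%, beside 5.00% of all loci. Most of their members lay above a level of -1.99, where at most 1.68% of the loci of a decile were in the upper 5%. With normexp, 1 phloem gene was there. Photosynthesis lists had medians from 0.110 for photorespiration to 0.129 for the antenna, at most 1.25 times those of loci of like level, and 1 of their 79 members was in the upper 5%. That member was the carbonic anhydrase gene CA1, at 5.36, 4.35, 4.32 and 4.89 on replicates 1 to 4. In the photosystem list 19 of 30 genes were highest on replicate 1, beside 28.3% of all loci, and 28 of 30 were lowest on replicate 2 or 3, beside 51.6% of all loci. Heat shock genes differed more, with a median SD of 0.282 over 5 genes, 3.14 times that of loci of like level and the highest such ratio of the 28 lists. Among them HSFA2, a heat-induced factor, read -4.11, -3.93, -2.44 and -3.25, and of 9 such genes 3 were undetected, beside 14.8% of all loci. In the stomatal list SDD1, a protease that limits stomatal number, read -3.44, -4.53, -5.60 and -4.41.

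Of the remaining lists, the hypoxia genes were all detected, from the sucrose synthase gene SUS1 at 2.70 ± 0.10 to PCO1 (AT5G15120) at -5.85 ± 0.59, and the nitrate genes were too, from the transporter gene NRT1.1 at 3.47 ± 0.10 to the nitrate reductase gene NIA1 at -0.93 ± 0.30. Of 10 iron genes, 7 were detected, beside 75.3% of all loci: the ferritin gene FER1 read 2.98 ± 0.19, while the iron deficiency gene bHLH39 was undetected at -9.04. Sugar starvation genes ran from DYL1 (DRM1) at 2.68 ± 0.25 to DIN2 at -5.40 ± 0.37, and the trichome genes from TTG1 at 1.96 ± 0.11 to GL1 (MYB0), which was undetected (SD, n = 4 each).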

How the data were processed

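RNA of 8 leaf samples was measured on 1-colour Agilent arrays, and the 4 wild-type arrays are described here. Per the file headers, the intensity of each spot came from Agilent's scanner software, version 11.5.1.1, which had subtracted background and detrended within an array. The authors also deposited a table of log2 values, which are centred per probe when set against the scanner values (r 0.851 to 0.969 on wild-type arrays) with a scaling that the sources used here leave unstated; its wild-type column medians were 0.0015, 0.0116, -0.0036 and 0.0041, and it served as an alternative. Computed here were log2 processed intensities minus each array's 75th percentile, without 1417 control spots and 26 to 63 outlier spots per wild-type array. Probes were named through RefSeq transcript accessions in a TAIR10.1 gene table, and 9255 were not matched. The array header gives another build name, so no positions are printed, and no sequence is shown.

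A locus had its brightest probe. SDs were ranked over loci well above background on all 4 arrays. The slide fit used limma 3.58.1 (R 4.3.3) with Benjamini-Hochberg adjustment over all loci, after a check on simulated data. The members, the 28 gene lists (341 entries, 337 measured, 3 left out because the gene table does not pair their name with their locus) and the naming rule were chosen with earlier results of these data known. Named genes were the 20 brightest, the 20 most and 10 least variable, 6 near the median, up to 4 highest, 2 lowest and 4 most variable members per list, and all reference genes; others were named after their values were seen. No probe was matched to ACT2. Normexp with an offset of 50 used the median spot signal in place of the mean signal first planned. Normexp and quantile values for the spread of lists and of variable loci were added after seeing the data. One gene family is not reported here.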

Additional observations from a re-analysis of the deposited data

Results flagged for a closer look

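Among 232 sets of 4 wild-type values, those of the named loci measured on every array and of 2 measures of the arrays, 14 (6.03%), all of them loci, had 1 replicate far from the other 3, in that its gap to the nearest value took most of the range; over all 19078 loci the share was 5.30%, and about 1 in 20 is the share that chance gives. Of the 14, 7 stood apart on replicate 1, 3 each on replicates 2 and 4 and 1 on replicate 3. On replicate 1, AT5G48690 read -2.72 against at most -6.16 elsewhere, FUT2 read -5.50 against at least -2.44, and GSTF12 read 1.204 against at least 2.33. The same replicate was low for THI1 at 7.45, AT2G33830 at 7.38 and RVE8 at -5.47, and high for NRAMP6 at -0.31. Replicate 2 was high for LTI30 at 2.62, against at most 2.203 elsewhere, and for NAC6 at 0.88, and low for SVR1 at 0.212, where the nearest value was 0.221. Replicate 3 was high for AT4G16610 at -1.63, against at most -4.67 elsewhere. Replicate 4 was high for PSBR at 8.01 and RBCS1B at 7.25 and low for ACT7 at 4.11.

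The FUT2 reading was also low in the raw median spot signal, which was 82 on replicate 1 and 375.5 to 417 on the others, over local backgrounds of 21 to 24. Of the 9255 probes matched to no locus, which no comparison used, 47.5% were well above background on all 4 wild-type arrays and 85 were at least as bright as the 100th locus, the brightest at 8.03.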

How the results depend on the processing

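The count of loci passing the slide fit was 0 with each alternative run. The count of detected loci ranged from 18441 to 21416 over its alternatives. The undetected count was 3765 with the flag used, 1139 with the scanner software's positive-and-significant flag, and 3828 to 4270 without single replicates. The median SD lay between 0.0970 and 0.114 in all alternatives. Of the 100 most variable loci, 60 were shared with normexp, 36 when SD was taken relative to loci of like level, and 58 to 85 when 1 replicate was left out, with 91 to 99 for quantile normalization, median scaling and the deposited table. Of the 100 brightest, 71 to 100 were shared. For normexp, 4 spots of replicate 1 with a far higher local background were left out, since with them the fitted background was -499.7 intensity units there, and without them -11.2; this was decided after seeing the data. Scaling to the array median adds 2.75 to every mean level. Quantile normalization moved 1 of 258 named means by more than its SD. Normexp moved 145 of 258, and over all 258 the change was -0.42 to 4.57 with a median of 0.14. Of 230 named SDs, 35 moved over 1.5 times with quantile normalization, 72 with normexp and 11 with median scaling. No paired analysis was possible because the genotypes were not compared and the wild-type arrays of the 2 slides share no replicate number. With 4 arrays, an SD is itself imprecise. The causes of these differences were not tested.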
